A study of Mus musculus with 18 samples.

Results

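The genes described here are 10 markers of cortical inhibitory interneurons and their neuropeptides: Gad1, Gad2, Pvalb, Sst, Vip, Npy, Cck, Crh, Lhx6 and Calb2. They were chosen by symbol, as named cell type and peptide genes, with earlier results of these data known. All 10 were found, as 1 row each, among the 13784 genes of each of the 3 deposited tables.

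RNA was measured in the cortex of 18 mice in 4 groups. These were 5 mice in which Chd8, a chromatin remodeller gene, was conditionally knocked out (cKO) in astrocytes, taken 72 hours after lipopolysaccharide (LPS), 5 control mice after LPS, 4 cKO mice given saline and 4 control mice given saline. LPS, a bacterial cell wall component that sets off an innate immune response, was injected into the abdominal cavity at 5 mg/kg in mice aged 4 to 6 months. Neither the driver of the knockout nor the alleles of the controls is named in the labels. Ribosome-depleted total RNA of whole tissue was sequenced, so that the cells that gave each transcript are not known.

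Inhibitory interneurons release the transmitter GABA, which the enzymes encoded by Gad1 and Gad2 make from glutamate. Cortical interneurons are sorted into classes by the proteins and peptides they make. Cells born in the medial ganglionic eminence, a part of the embryonic forebrain, express Lhx6 and later Pvalb or Sst, whereas cells born in the caudal ganglionic eminence include those with Vip and many with Calb2. Npy, Cck and Crh mark further subsets, and Cck mRNA is also made by many excitatory cortical neurons. The peptides are stored in dense-core vesicles and act on G protein-coupled receptors of nearby cells.

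The values are those of the authors' 3 tables, which compare cKO with control mice after LPS, LPS with saline in cKO mice, and LPS with saline in controls. Their headers state no direction of the fold changes, which was read from the match of group levels between tables. Values per library were not used here, so the depth of each library and the spread between mice are unknown. Standard errors (SE) were derived from the deposited fold change and F statistic, except those of the difference of LPS responses. Group levels in CPM (read counts scaled to library size) were back-calculated from the deposited mean level and fold change, and they are not divided by transcript length, so they are compared between groups and not between genes. The tables share the LPS groups, and an LPS group has 1 estimate from each of 2 tables; the median gene was lower by 0.05 on the log2 scale in the table of the genotypes, for cKO LPS and for control LPS alike. The labels do not state sex. The estimated level of the Y-linked gene Ddx3y was 50.5 CPM in cKO LPS and 18.9 CPM in control LPS in the table of the genotypes, 58.6 CPM in cKO saline and 0.00687 CPM in control saline. Ddx3y rose after LPS in the authors' deposited table for controls (FDR = 0.0351), and its part in the results below was not tested.

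A gene counts as changed at a false discovery rate (FDR) below 0.05 over all genes in the authors' deposited table. Few of the 10 genes changed. After LPS, Cck fell in cKO mice and in controls and Gad2 rose in cKO mice, while none of the 10 passed between cKO and control mice after LPS. In cKO mice 2 of the 10 genes changed after LPS, 1 higher and 1 lower, where 19.5% of all genes changed (10.9% higher and 8.52% lower). In controls 1 of the 10 changed, and it was lower, where 9.76% of all genes changed (6.46% higher and 3.31% lower). Between the genotypes after LPS, 0 of 10 passed by the authors' edgeR test, where 0.00725% of all genes passed. At an unadjusted p below 0.05, 2 of the 10 (Gad2 and Cck) differed between the genotypes, against 12.3% of all genes; after LPS these were 4 of 10 in cKO mice, against 35.8%, and 3 of 10 in controls, against 28.9%. These shares give no sign that the 10 genes responded more often than other genes.

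**Figure D1:**
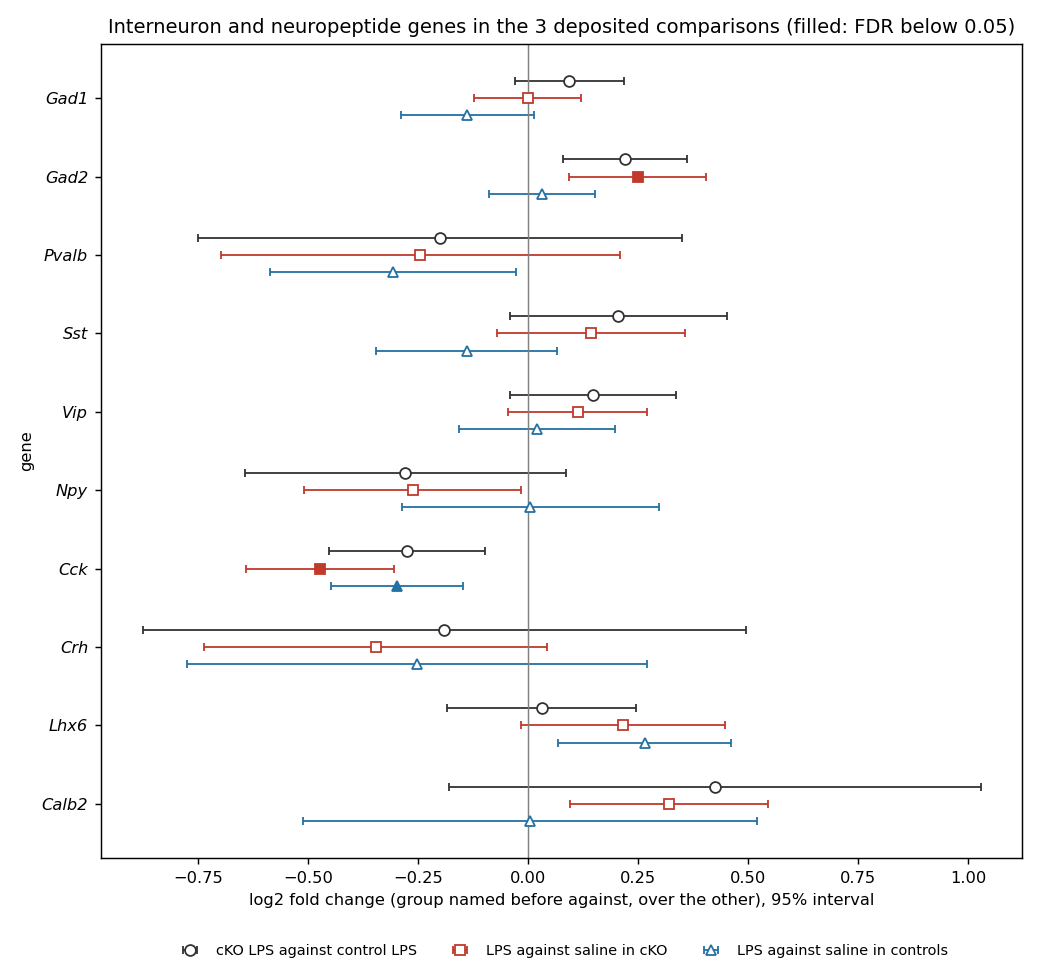
Log2 fold change of each of the 10 genes (horizontal axis) in the 3 deposited comparisons, with the group named before "against" over the other and bars for the 95% interval; filled symbols passed an FDR of 0.05. Cck after LPS in both genotypes and Gad2 after LPS in cKO mice are the filled points, and the intervals of Crh, Pvalb and Calb2 are the widest in the comparison of the genotypes.

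Gad2 and Gad1, which encode the smaller, synapse-associated and the larger, more evenly spread form of glutamate decarboxylase, stood apart. For Gad2 the estimated level after LPS in cKO mice was 154 CPM, against 129 CPM after saline. In controls it was 135 CPM after LPS and 132 CPM after saline. Of the 4 groups, cKO LPS was thus the high one. In the authors' deposited tables, Gad2 rose by 0.25 ± 0.07 SE on the log2 scale in cKO mice (95% interval 0.09 to 0.40, FDR = 0.0355). It had 0.03 ± 0.05 in controls (interval -0.09 to 0.15, FDR = 0.752). Between cKO LPS and control LPS, with 152 and 131 CPM in that table, Gad2 had 0.22 ± 0.06 (interval 0.08 to 0.36, FDR = 0.291), the interval before any adjustment over genes.

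Gad1 varied less. Its estimated level was 309 CPM in cKO LPS and 309 CPM in cKO saline, and 294 CPM in control LPS and 324 CPM in control saline. The log2 fold change after LPS in the authors' deposited tables was 0.00 ± 0.05 in cKO mice (FDR = 0.992) and -0.14 ± 0.07 in controls (FDR = 0.206). Set against control LPS, cKO LPS had 0.09 ± 0.05 (FDR = 0.518). The intervals of Gad1 end at 0.22 or below in all 3 tables, so a change of 1.5-fold, or 0.58 on the log2 scale, lies outside each of them. An antisense gene, Gad1os, overlaps Gad1 in the GENCODE annotation and is not among the tables' genes; the labels do not state whether reads were counted by strand.

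**Figure D2:**
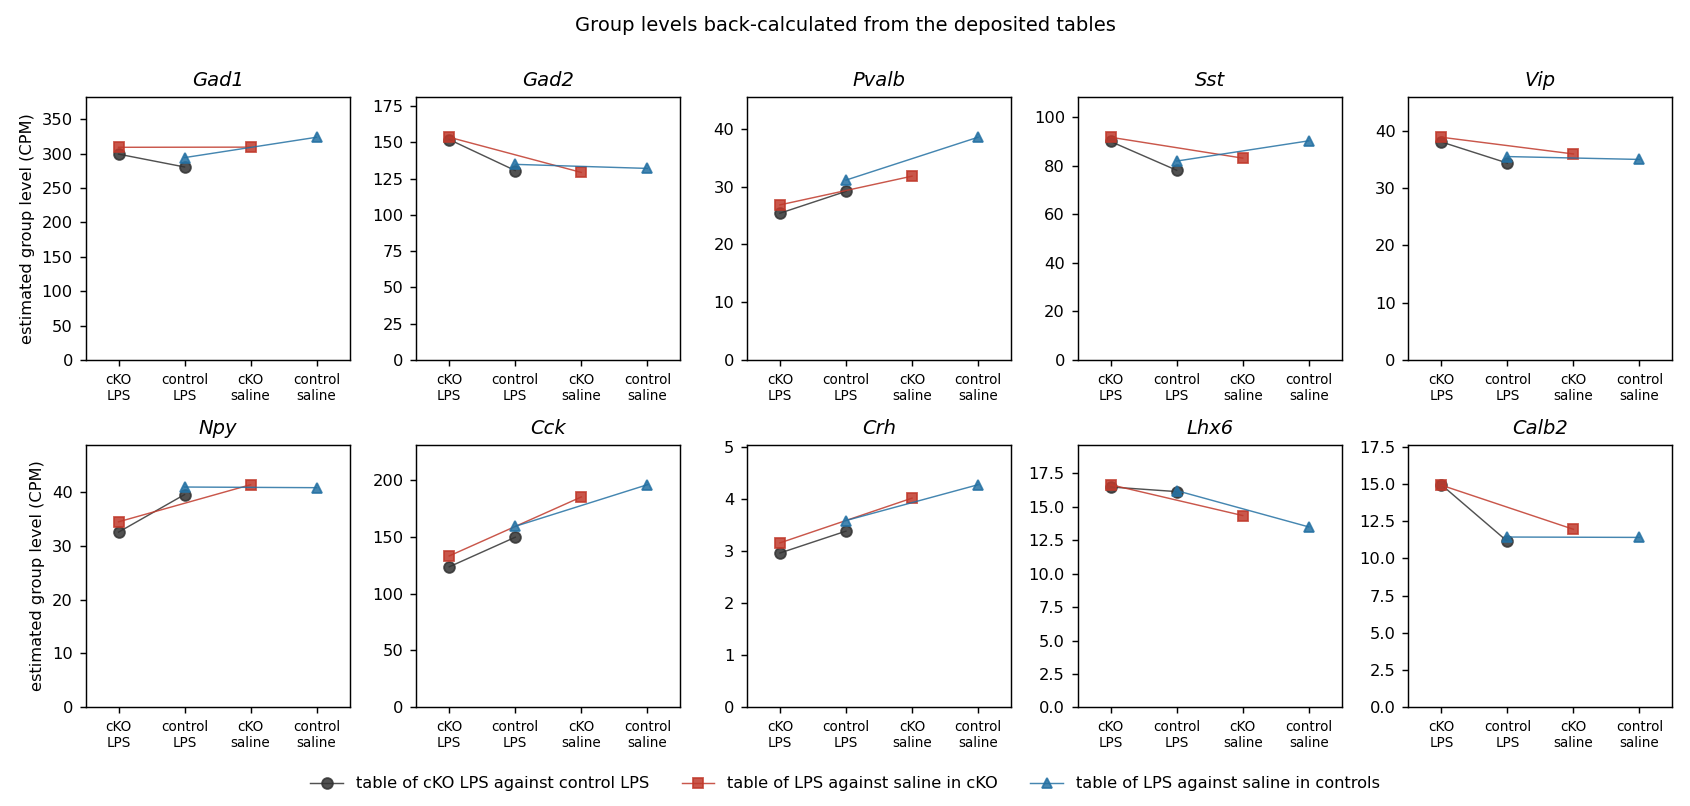
Estimated level of each of the 10 genes in CPM (vertical axis, from 0) in cKO LPS, control LPS, cKO saline and control saline mice, back-calculated from the deposited tables; symbols and lines mark the table each pair of values comes from. Cck stands lowest in cKO LPS (123 and 133 CPM from 2 tables) and highest in control saline (196 CPM), and Gad2 stands highest in cKO LPS.

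The striatum lies beneath the cortex, and its projection neurons also make GABA with Gad1 and Gad2. Markers of the striatum were, in summed level, also highest in cKO LPS, as Gad2 was. The summed level of 10 measured striatal neuron genes was 645 to 655 CPM in cKO LPS, 444 to 469 CPM in control LPS, 581 CPM in cKO saline and 543 CPM in control saline. None of the 10 passed between the genotypes after LPS, but all 10 lay above 0 (median 0.56, against 0.00 for all genes). Ppp1r1b, a phosphatase inhibitor of dopamine-responsive striatal neurons, had 0.63 ± 0.20 (FDR = 0.298) and the phosphodiesterase gene Pde10a 0.68 ± 0.32 (FDR = 0.425) in the authors' deposited table. In cKO mice after LPS, 2 of the 10 rose in the authors' deposited table, the dopamine receptor gene Drd2 by 0.78 ± 0.23 (FDR = 0.0449) and Ppp1r1b by 0.45 ± 0.14 (FDR = 0.0454). In controls 0 of 10 passed, with a median of -0.18, and 0 had an unadjusted p below 0.05. The untested saline estimate, cKO minus control, was above 0 for 10 of the 10 striatal genes (median 0.27), and that of Gad2 was 0.00. The listed striatal gene Isl1 is not among the tables' genes. The part of striatal RNA in the values of Gad2 was not tested.

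Among the class markers born in the medial ganglionic eminence, no gene passed in any table. Lhx6, a homeodomain transcription factor needed to specify these cells, had an estimated 16.7 CPM in cKO LPS and 14.4 CPM in cKO saline, and 16.2 CPM in control LPS and 13.5 CPM in control saline. Both LPS groups were thus above both saline groups. Its log2 fold change after LPS was 0.21 ± 0.10 in cKO mice (FDR = 0.167) and 0.26 ± 0.09 in controls (FDR = 0.0848) in the authors' deposited tables. In the table of the genotypes it was 0.03 ± 0.09 (interval -0.18 to 0.25, FDR = 0.923).

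Sst, the precursor of somatostatin, a peptide that inhibits release and firing, had opposite signs in the genotypes. Its estimated level was 91.7 CPM in cKO LPS and 83.1 CPM in cKO saline, but 81.9 CPM in control LPS and 90.3 CPM in control saline. In the authors' deposited tables the log2 fold change after LPS was 0.14 ± 0.10 in cKO mice (FDR = 0.313) and -0.14 ± 0.09 in controls (FDR = 0.344). For cKO LPS over control LPS it was 0.20 ± 0.11 (FDR = 0.473). Each of these intervals includes 0.

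Pvalb, the calcium-binding protein of fast-spiking basket and chandelier cells, lay below 0 in all 3 tables. It had 26.9 CPM in cKO LPS and 31.8 CPM in cKO saline, and 31.1 CPM in control LPS and 38.6 CPM in control saline, so that cKO LPS was the low group and control saline the high one. After LPS the log2 fold change was -0.25 ± 0.20 in cKO mice (FDR = 0.413) and -0.31 ± 0.13 in controls (FDR = 0.138) in the authors' deposited tables. For cKO LPS over control LPS it was -0.20 ± 0.24 (FDR = 0.766), with an interval of -0.75 to 0.35 that leaves room for a change of 1.5-fold downwards.

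Of the class markers linked to the caudal ganglionic eminence, Vip was the steadier and Calb2 the more variable. Vip, the precursor of vasoactive intestinal peptide, which marks interneurons that inhibit other interneurons, had 38.8 CPM in cKO LPS and 35.9 CPM in cKO saline, and 35.5 CPM in control LPS and 35.0 CPM in control saline. Its log2 fold changes lay between 0.02 and 0.15 in the authors' deposited tables, with FDR values of 0.282 in cKO mice, 0.891 in controls and 0.50 between the genotypes. Calb2, the calcium-binding protein calretinin, had 14.9 CPM in cKO LPS against 11.1 CPM in control LPS in the table of the genotypes, and 12.0 CPM in cKO saline and 11.4 CPM in control saline. Calb2 in the authors' deposited tables had 0.32 ± 0.10 after LPS in cKO mice (FDR = 0.0516), 0.00 ± 0.23 in controls (FDR = 0.995) and 0.42 ± 0.27 between cKO LPS and control LPS (FDR = 0.548). The SE of Calb2 was larger in the tables that hold the control LPS group than in the table of cKO mice alone.

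Of the remaining peptide genes, Cck changed. Cck encodes the precursor of cholecystokinin, an abundant cortical peptide that acts in the brain mainly on the receptor encoded by Cckbr. The estimated level was 133 CPM in cKO LPS and 185 CPM in cKO saline, and 159 CPM in control LPS and 196 CPM in control saline. Both LPS groups were below both saline groups, and cKO LPS was the lowest. In the authors' deposited tables Cck fell by 0.47 ± 0.08 on the log2 scale after LPS in cKO mice (interval -0.64 to -0.31, FDR = 0.00653), a change in level of -28.0%. It fell by 0.30 ± 0.07 in controls (interval -0.45 to -0.15, FDR = 0.0287), a change in level of -18.7%. Neither fall reached 1.5-fold. Between cKO LPS and control LPS, with 123 and 149 CPM in that table, Cck had -0.28 ± 0.08 (interval -0.45 to -0.10 before any adjustment over genes, FDR = 0.291). In bulk tissue, fewer cells of a type and less RNA per cell cannot be told apart.

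Cck shares cells with markers of excitatory neurons. Of 12 such markers 2 rose and none fell in cKO mice (median -0.06), and 2 rose and none fell in controls (median 0.15). The genes were Camk2a, a synaptic kinase subunit, at 0.40 ± 0.08 in cKO mice and 0.45 ± 0.08 in controls, and Tbr1, a deep-layer transcription factor, at 0.52 ± 0.12 in cKO mice and 0.54 ± 0.13 in controls in the authors' deposited tables. The summed level of the 12 markers was 2883 CPM in cKO LPS and 2508 CPM in cKO saline, and 2970 CPM in control LPS and 2490 CPM in control saline. Camk2a made up much of it, with 1191 CPM in cKO LPS and 900 CPM in cKO saline, and 1201 CPM in control LPS and 877 CPM in control saline. After LPS 7 of the 12 lay below 0 in cKO mice and 3 in controls. Between the genotypes after LPS, 10 of the 12 lay below 0 (median -0.11) and none passed. Immediate early genes, whose transcription follows neuronal firing, had a summed level of 500 CPM in cKO LPS and 920 CPM in control LPS in the table of the genotypes, with 12 of 12 below 0 (median -0.64) and none past an FDR of 0.05. In cKO mice 3 of these 12 fell after LPS, Egr2 (-1.60 ± 0.26), Fos (-0.79 ± 0.23) and Nptx2 (-0.28 ± 0.09) in the authors' deposited table. In controls, where Cck also fell, 11 of the 12 lay above 0 (median 0.17) and none passed by the authors' edgeR test, with 1 at an unadjusted p below 0.05; their summed level was 931 CPM in control LPS and 797 CPM in control saline. Their part in the values of Cck was not tested.

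The bases before the start of Cck are shown because Cck is the gene that changed in both genotypes, and because they hold a short motif that some of the other genes also carry. The cyclic AMP response element, bound by the activity-regulated factor CREB, was first described in the somatostatin gene; its full form is TGACGTCA, and its short form is TGACG on either strand, which the full form contains on both. RefSeq promoter windows on GRCm38.p6 were matched by symbol for 8 of the 10 genes, with 11 windows in all. In the 250 bases before each start, the short form was found in 1 window each of Cck, Gad2, Sst and Vip, which is 4 of 11 windows. Among 32851 windows of all genes, 17.8% held the short form and 1.55% the full form, which Sst alone of these genes held. The 250 bases before the start of Cck (chr9:121495695-121495944, minus strand) follow, with the motif in capitals; its first base lies 47 bases before the start.

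Cck: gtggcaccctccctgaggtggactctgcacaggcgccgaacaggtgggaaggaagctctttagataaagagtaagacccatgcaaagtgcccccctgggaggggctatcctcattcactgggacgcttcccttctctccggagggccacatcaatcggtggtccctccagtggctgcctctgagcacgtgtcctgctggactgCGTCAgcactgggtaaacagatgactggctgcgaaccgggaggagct

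For comparison, stretches of 30 bases around the motif of each of the 4 genes follow, 5′ to 3′ along the gene's own strand, with the motif in capitals. They lie at chr9:121495724-121495753 (minus strand) for Cck, chr2:22622282-22622311 (plus strand) for Gad2, chr16:23890875-23890904 (minus strand) for Sst and chr10:5639127-5639156 (plus strand) for Vip, all on GRCm38.p6.

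Cck: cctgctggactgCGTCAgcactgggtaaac

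Gad2: ccatttcccttcCGTCActctctcatctcc

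Sst: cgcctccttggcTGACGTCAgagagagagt

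Vip: ggatcactactgTGACGtctttcggggagc

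Of the genes that hold the motif, Cck fell after LPS in cKO mice, Gad2 rose, and Sst and Vip did not pass. The part of the motif in these values was not tested. A match of letters is a description of the window and not a bound site.

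Npy and Crh did not pass in any table. Npy, the precursor of neuropeptide Y, which dampens transmitter release, had 34.4 CPM in cKO LPS against 41.3 CPM in cKO saline, and 40.8 CPM in control LPS against 40.7 CPM in control saline. The cKO LPS group was thus lower than the other 3. After LPS the log2 fold change was -0.26 ± 0.11 in cKO mice (FDR = 0.118) and 0.00 ± 0.13 in controls (FDR = 0.987), and between cKO LPS and control LPS it was -0.28 ± 0.16 (FDR = 0.508), in the authors' deposited tables. Crh, the precursor of corticotropin-releasing hormone, a stress peptide also made by cortical interneurons, was at 3.16 CPM in cKO LPS and 4.02 CPM in cKO saline, and at 3.59 CPM in control LPS and 4.28 CPM in control saline. Its values lay between -0.35 and -0.19 with SE of 0.17 to 0.30 in the authors' deposited tables (FDR = 0.184 in cKO mice, FDR = 0.510 in controls and FDR = 0.825 between the genotypes). At this level the interval between the genotypes, -0.88 to 0.49, leaves room for a fall of more than 1.5-fold.

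Whether the LPS responses differed between the genotypes was tested on the difference of the fold changes, cKO minus control, for every gene; these comparisons share no library. The SE of these differences came from the normal quantiles that match the deposited p-values. They are larger than SE from F would be. None of the 10 passed after adjustment over all genes, where 0.00725% did. At an unadjusted p below 0.05 there were 2 of the 10, against 6.52% of all genes. These were Gad2, with a difference of 0.22 ± 0.10 SE (95% interval 0.01 to 0.42, adjusted p = 0.752), and Sst, with 0.28 ± 0.14 (interval 0.00 to 0.56, adjusted p = 0.763). Calb2 had 0.32 ± 0.27 (adjusted p = 0.880), Npy -0.27 ± 0.18 (adjusted p = 0.844) and Gad1 0.14 ± 0.09 (adjusted p = 0.842). For Cck the difference was -0.18 ± 0.15 (interval -0.48 to 0.12, adjusted p = 0.882). The fall of Cck in both genotypes therefore goes with no detected difference between them, and the interval allows an extra fall of up to 0.48 in cKO mice. The remaining 4 genes, Pvalb, Vip, Crh and Lhx6, had differences between -0.09 and 0.09. The median over the 10 genes was 0.08, against 0.00 over all genes.

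**Figure D3:**
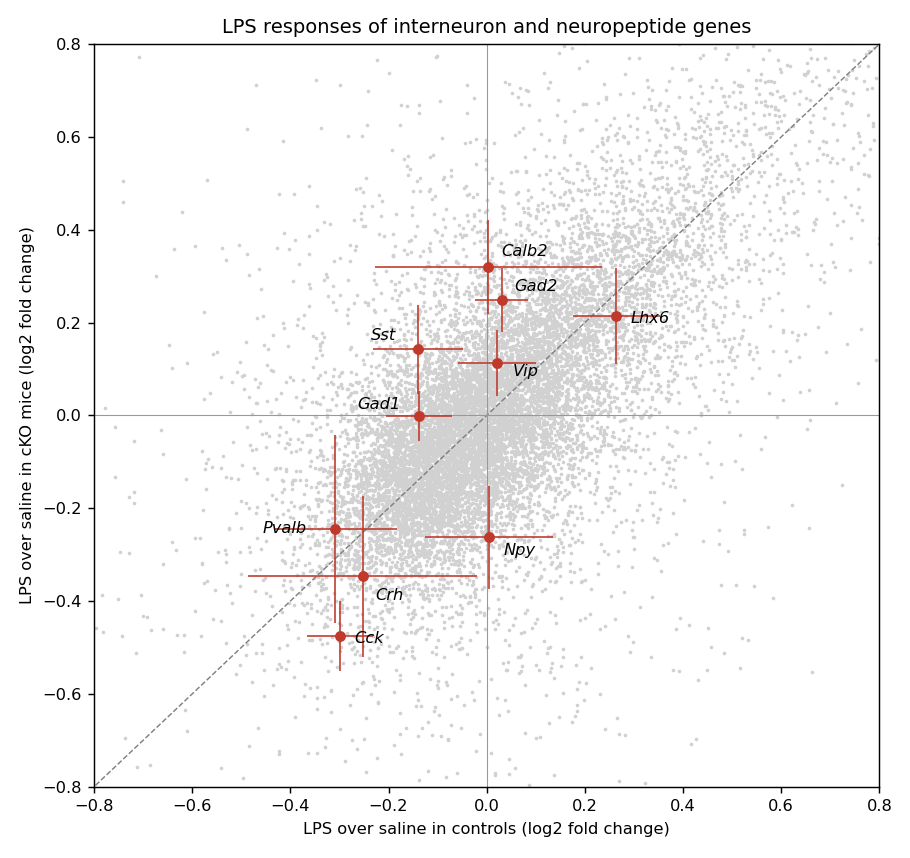
LPS over saline log2 fold change in cKO mice (vertical axis) against that in controls (horizontal axis), with red points and SE bars for the 10 genes, grey points for all other genes within the axes, and a dashed line of equal response. Gad2, Sst and Calb2 lie above the dashed line and Npy and Cck below it; none differed between genotypes after adjustment over all genes.

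No table compares the genotypes after saline, so the cKO minus control difference was estimated from the 3 fold changes, without a test. The estimates of the 10 genes lay between -0.26 and 0.11, with a median of -0.03, against 0.00 for all genes. For Cck the estimate was -0.10, with 185 CPM in cKO saline and 196 CPM in control saline. For Gad2 it was 0.00, with 129 CPM in cKO saline and 132 CPM in control saline. The lowest estimate was that of Pvalb (-0.26, at the 2.52 percentile point of all genes) and the highest that of Calb2 (0.11, at the 90.8 percentile point).

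Other genes of the same cells and pathways moved as follows. The counts are to be read beside the shares of all genes: 10.9% rose and 8.52% fell in cKO mice, and 6.46% rose and 3.31% fell in controls. Of 7 genes of GABA transport, breakdown and receptor anchoring, 1 rose after LPS in cKO mice and none fell: Slc32a1, the transporter that loads GABA into vesicles, by 0.52 ± 0.10 (FDR = 0.0125; 46.9 CPM after LPS and 32.6 CPM after saline in cKO mice) in the authors' deposited table. In controls 0 of 7 passed, 2 with an unadjusted p below 0.05, and Slc32a1 had 0.28 in the authors' deposited table. The striatal neurons whose markers are given with Gad2 also express Slc32a1, and their part in its value was not tested. Between cKO LPS and control LPS 0 of 7 passed by the authors' edgeR test and 1 had an unadjusted p below 0.05. The list had a median of 0.14 there, with 6 of 7 above 0, against 0.00 and 50.5% for all genes.

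Interneuron transcription factors rose in part after LPS. Of 14 measured, 4 rose and none fell in cKO mice (median 0.28), where 10.9% of all genes rose. In controls 1 rose and none fell (median 0.23), where 6.46% of all genes rose. In the authors' deposited table for cKO mice, the homeobox genes Dlx2 and Dlx1, which direct the GABA-producing lineage, rose, Dlx2 by 1.00 ± 0.22 (FDR = 0.0163) and Dlx1 by 0.49 ± 0.14 (FDR = 0.0386). Dlx2 was at a low level, 2.24 CPM in cKO LPS and 1.12 CPM in cKO saline. Its mean log2 CPM of 0.80 lies below the filter of 1 that was tried as an alternative. Nr2f2, which is also a gene of venous endothelium, rose by 0.71 ± 0.22 (FDR = 0.0478) in the authors' deposited table. Endothelial markers rose in 4 of 6 in each genotype, with 182 CPM in cKO LPS and 128 CPM in cKO saline, and 206 CPM in control LPS and 132 CPM in control saline. The part of endothelial cells in the value of Nr2f2 was not tested. Between the genotypes after LPS 0 of 14 passed by the authors' edgeR test, 1 with an unadjusted p below 0.05 (Maf, -0.27 ± 0.10 in the authors' deposited table).

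Further class genes showed few changes. Of 17 genes linked to cells of the medial ganglionic eminence, 1 fell and none rose after LPS in cKO mice, the potassium channel gene Kcnc2 of fast-spiking cells (-0.18 ± 0.06, FDR = 0.0464 in the authors' deposited table), and 0 of 17 passed in controls, where Kcnc2 had -0.16 ± 0.06 (FDR = 0.104) and 2 had an unadjusted p below 0.05. Of 15 genes linked to cells of the caudal ganglionic eminence, 2 rose in cKO mice in the authors' deposited table: Htr3a, a serotonin-gated channel, by 0.42 ± 0.13 (FDR = 0.0497), and Crispld2, a secreted protein gene, by 0.95 ± 0.26 (FDR = 0.0343). In controls 1 of the 15 rose, Cp, the copper-carrying ferroxidase ceruloplasmin, which astrocytes also make, by 0.61 ± 0.13 (FDR = 0.0233). Between the genotypes after LPS none passed in either list by the authors' edgeR test, with 0 of 17 and 2 of 15 at an unadjusted p below 0.05; Htr3a had 0.75 ± 0.19 (FDR = 0.282 in the authors' deposited table), with 7.45 CPM in cKO LPS and 4.44 CPM in control LPS.

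Of 14 other neuropeptide precursors measured, 1 rose after LPS in each genotype, and it was Pdyn, the precursor of the dynorphin opioids. Pdyn had 28.2 CPM in cKO LPS and 15.1 CPM in cKO saline, and 25.1 CPM in control LPS and 15.3 CPM in control saline. It rose by 0.90 ± 0.10 in cKO mice (FDR = 0.00341) and by 0.72 ± 0.12 in controls (FDR = 0.00976) in the authors' deposited tables. Pdyn is also made by striatal projection neurons, whose markers had a median of 0.18 in cKO mice and -0.18 in controls. The part of striatal RNA in the values of Pdyn was not tested. Between cKO LPS and control LPS none of the 14 passed, with a median of 0.21 and 2 at an unadjusted p below 0.05. The first was Bdnf, a growth factor carried in the same vesicles, at -0.49 ± 0.15 (FDR = 0.294) in the authors' deposited table. The other was Nts, the neurotensin precursor, at 1.09 ± 0.36 (FDR = 0.324) in the authors' deposited table. Nts was at a low level, 3.40 CPM in cKO LPS and 1.60 CPM in control LPS.

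Genes that process and package peptides moved in both directions. Of 15, 2 rose and 2 fell after LPS in cKO mice, and none rose and 2 fell in controls. Cadps2, a priming factor for dense-core vesicles, fell by 0.23 ± 0.05 in cKO mice (FDR = 0.0192) and by 0.35 ± 0.07 in controls (FDR = 0.0156) in the authors' deposited tables. Pam, the enzyme that amidates peptides such as cholecystokinin and neuropeptide Y, fell by 0.20 ± 0.06 in cKO mice (FDR = 0.0408) and by 0.27 ± 0.07 in controls (FDR = 0.0453) in the authors' deposited tables. Cpe, which trims basic residues from peptide precursors, and Pcsk1n, an inhibitor of a peptide-cutting protease, rose in cKO mice, Cpe by 0.33 ± 0.09 (FDR = 0.0286) and Pcsk1n by 0.47 ± 0.13 (FDR = 0.0320), in the authors' deposited table. After LPS none of the 15 passed between the genotypes by the authors' edgeR test, and 4 had an unadjusted p below 0.05.

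Among 17 neuropeptide receptors, 2 rose and 4 fell after LPS in cKO mice (median -0.16), and 1 rose and none fell in controls (median -0.02). Sstr2, a somatostatin receptor, fell by 0.50 ± 0.07 in cKO mice (FDR = 0.00488), with 20.6 CPM after LPS and 29.1 CPM after saline, and Oprd1, the delta opioid receptor, fell by 0.41 ± 0.07 (FDR = 0.00924) in the authors' deposited table. Adcyap1r1, the receptor of the peptide PACAP, rose by 0.45 ± 0.06 in cKO mice (FDR = 0.00490) and by 0.35 ± 0.08 in controls (FDR = 0.0245), and Tacr1, the substance P receptor, rose by 0.65 ± 0.18 in cKO mice (FDR = 0.0370) in the authors' deposited tables. Between cKO LPS and control LPS 0 of 17 passed by the authors' edgeR test and 6 had an unadjusted p below 0.05, against 12.3% of all genes. Those named are Oprd1 at -0.38 ± 0.08 (FDR = 0.195) and Vipr1, a receptor for vasoactive intestinal peptide, at -0.36 ± 0.10 (FDR = 0.282), in the authors' deposited table. No receptor passed the test of the difference of LPS responses, and 3 had an unadjusted p below 0.05.

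**Figure D4:**
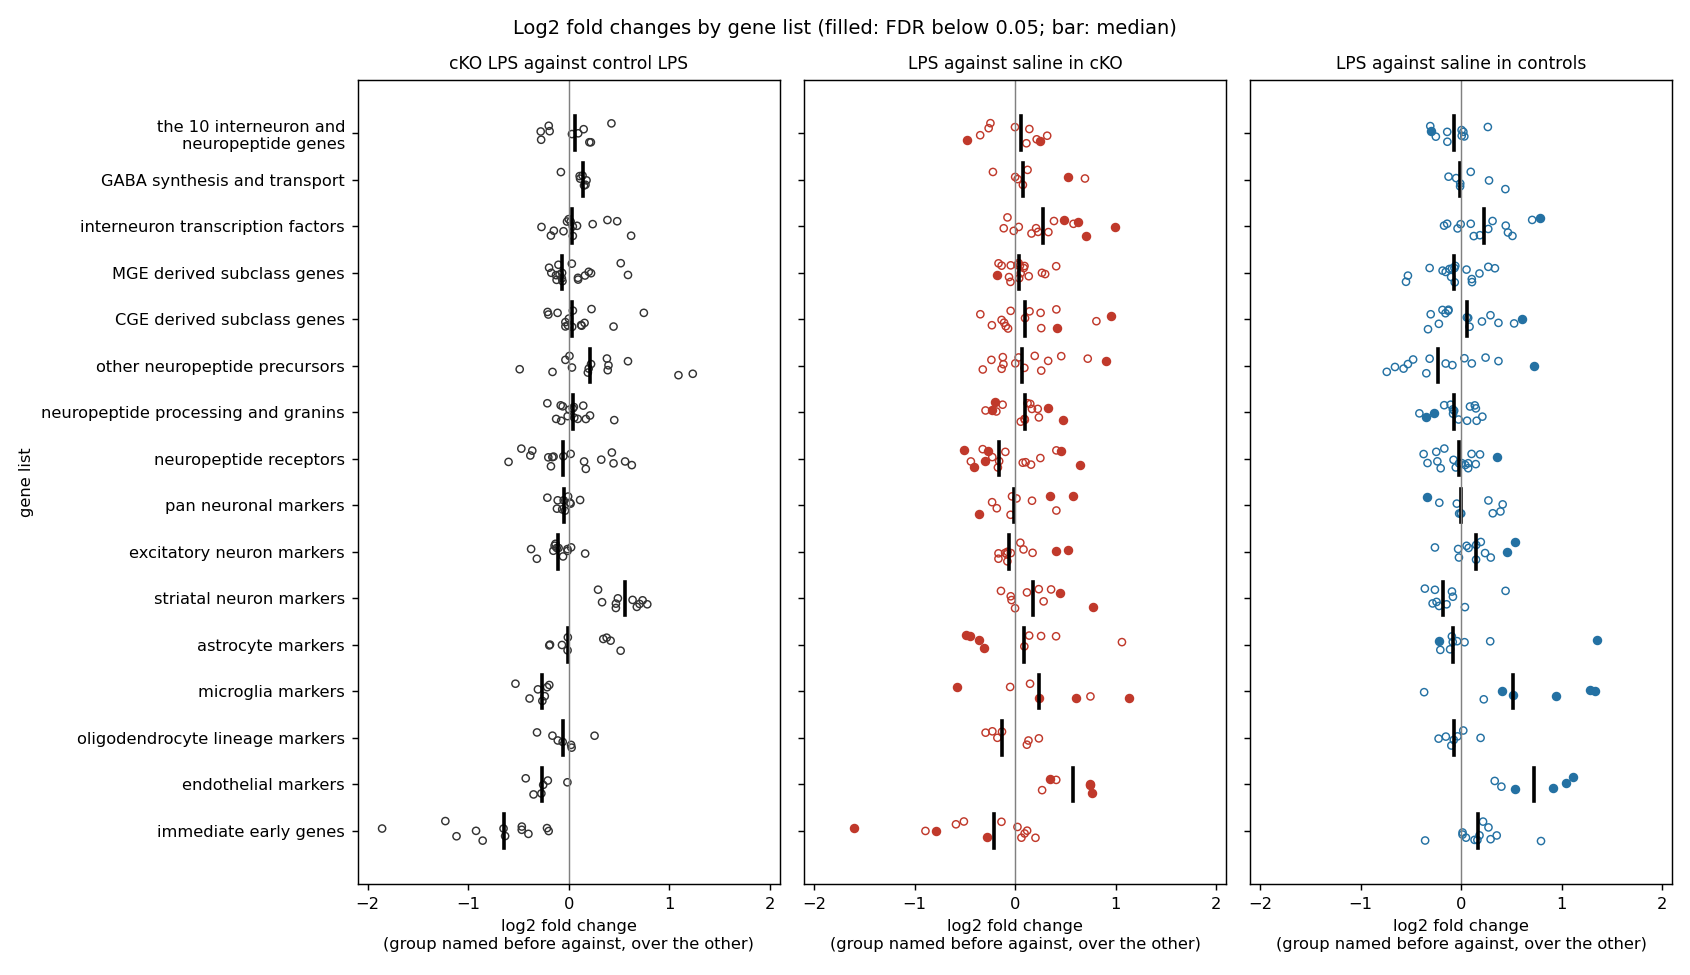
Log2 fold change of single genes (horizontal axis) by gene list (rows) in the 3 deposited comparisons, with the group named before "against" over the other; filled points passed an FDR of 0.05 and black bars mark the median of each list. The 10 interneuron and neuropeptide genes have medians of 0.06, 0.06 and -0.07 from the left panel to the right, while striatal neuron markers lie above 0 in 10 of 10 and immediate early genes below 0 in 12 of 12 in the left panel.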

How the data were processed

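Bulk cortex RNA-seq was available as 3 comparison tables made by the authors, each with 13784 genes, of which 757 lack a symbol. The submitters' processing notes name the build GRCm39 and the tools edgeR 3.30.3, RSEM, STAR and cutadapt 3.5, with no order or gene filter. For every gene the authors deposited an edgeR log2 fold change, the average log2 CPM, the F statistic (a score), the p-value and the FDR, per the file headers. The fold changes carry no stated direction. Read as cKO over control and LPS over saline, the levels of 1 LPS group in its 2 tables had differences with an SD of at most 0.0537, and with any sign turned the larger SD was at least 0.226. FDR values recomputed by Benjamini-Hochberg adjustment were those deposited, to rounding.

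SE is the absolute fold change over the root of F, and intervals use the residual degrees of freedom that F and p imply (medians 8.66, 9.76 and 9.85). Group levels take the deposited mean as the log2 of the mean CPM over libraries of equal weight. The difference of LPS responses takes each SE from the normal quantile that matches the p-value and was tested on simulated tables; adjustment was over all genes. Sequences are from RefSeq windows on GRCm38.p6, used for letters only. Python 3.11.15 and scipy 1.17.1 were used. The 10 genes and the gene lists were chosen with earlier results of these data known. Named are the 10 genes and, per list and comparison, up to 4 changed genes by smallest p or otherwise up to 2, with values of such a gene in another comparison added for Slc32a1 and Kcnc2; Ddx3y and Gad1os were named after values were seen, and some genes that the rule selects are not reported here. Replicates are separate mice per the labels' numbering alone, so p-values measure the spread between these libraries. Alternatives were centring on the median, a filter on low genes, another FDR threshold, a minimum fold change and other SE, routes or tables.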

Additional observations from a re-analysis of the deposited data

How the results depend on the processing

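No library could be left out and the depth of each is unknown, since the deposited tables hold no values per library. No paired analysis was possible because the columns carry no replicate. With at least 1.5-fold required besides the FDR, 0 of the 10 genes changed after LPS in cKO mice and 0 in controls, and the counts over all genes were 649 and 498. At an FDR below 0.10, 4092 genes changed in cKO mice and 2557 in controls; among the 10, Calb2 passed as well in cKO mice, and 2 of the 10, Cck and Lhx6, passed in controls. Centring on the median of all genes turned the sign of Gad1 after LPS in cKO mice, to 0.000224. Centring and the filter at a mean log2 CPM of at least 1 changed no call of the 10 genes. Taking SE from F, 1 gene passed the difference of LPS responses and none of the 10. By either route or with centring, the saline estimates moved by less than the root mean square SE of the 3 fold changes. That value is not an SE of the estimate itself. The estimates of Gad2 and Npy, near 0, changed sign in part of these settings. The level of an LPS group depended on the table it was taken from for 3 values, beyond the spread derived for them: the tables of LPS against saline, whose levels are those given for the 4 groups, had 7.06 in log2 CPM for Cck in cKO LPS, 7.31 for Cck in control LPS and 8.20 for Gad1 in control LPS, and the table of the genotypes had 6.95 for Cck in cKO LPS, 7.22 for Cck in control LPS and 8.13 for Gad1 in control LPS.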

Other observations

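Pan-neuronal genes split after LPS. In the authors' deposited table for cKO mice, Rbfox3, which encodes the neuronal nuclear marker NeuN, rose by 0.58 ± 0.09 (FDR = 0.00653) and Stmn2, a neuronal microtubule regulator, by 0.35 ± 0.06 (FDR = 0.00952), while the tubulin gene Tubb3 fell by 0.36 ± 0.10 (FDR = 0.0310). In controls Tubb3 fell by 0.34 ± 0.06 (FDR = 0.0138) in the authors' deposited table, the 1 of 10 such genes that passed there. The summed level of these 10 genes was 7071 CPM in cKO LPS and 7377 CPM in cKO saline, and 7296 CPM in control LPS and 7380 CPM in control saline.

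The summed level of the 10 interneuron and neuropeptide genes was 822 CPM in cKO LPS and 846 CPM in cKO saline, and 809 CPM in control LPS and 885 CPM in control saline.

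Among 9 astrocyte markers, none passed as higher and 4 fell after LPS in cKO mice, while 1 rose and 1 fell in controls. The largest log2 fold change of the list after LPS was 1.06 in cKO mice, which did not pass, and 1.35 in controls. None passed between the genotypes after LPS. In the test of the difference of LPS responses, 0 of the 9 had an unadjusted p below 0.05. Of 7 oligodendrocyte lineage markers none passed in the 3 deposited tables by the authors' edgeR test, with 1 at an unadjusted p below 0.05, in cKO mice.

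Of 7 microglia markers, 3 rose and 1 fell after LPS in cKO mice and 5 rose in controls. Their summed level was 360 CPM in cKO LPS and 283 CPM in cKO saline, and 430 CPM in control LPS and 280 CPM in control saline.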
